A study of Homo sapiens with 12 samples.

Results

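The BACH, NRF and small MAF transcription factors and their regulator KEAP1 were followed in AsPC-1 cells, an established human pancreatic ductal adenocarcinoma line, after *BACH1* had been targeted in 2 ways. The 9 genes are the repressors *BACH1* and *BACH2*, the activators *NFE2L1*, *NFE2L2* and *NFE2L3*, the partners *MAFF*, *MAFG* and *MAFK*, and *KEAP1*. They were found by their Ensembl identifiers in both count tables, and all 9 were present among 57820 gene identifiers. RNA sequencing of rRNA-depleted total RNA gave 12 libraries in 4 groups of 3. The siBACH1 cells were harvested 24 h after lipid transfection of a Stealth siRNA against *BACH1*. The siCont cells are the controls labelled for that experiment, with the same 24 h from transfection to harvest. The sgBACH1 cells, labelled as a *BACH1* knock-out, had been infected with a lentiCRISPR v2 lentivirus that carries Cas9 and a guide RNA. They had been selected in 10 µg/ml puromycin. The sgCont cells are their labelled controls, with the same puromycin selection. The labels give no sequence for the siRNA, the control siRNA or the control guide, and do not say whether the selected cells were a clone or a mixed population. The series set out to search for BACH1 target genes, and here the comparisons ask whether the factors that share DNA sites with BACH1 moved with it.

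The cap'n'collar (CNC) proteins BACH1, BACH2, NRF1 (encoded by *NFE2L1*), NRF2 (*NFE2L2*) and NRF3 (*NFE2L3*) bind DNA only as dimers with a small MAF protein, and most of their sites are antioxidant response elements that repressor and activator dimers compete for. BACH1 represses at these sites and is released and degraded when heme binds it, while NRF2 activates and is kept low by KEAP1, the adaptor that brings it to the CUL3 ubiquitin ligase. NRF1 and NRF3 are made as membrane proteins of the endoplasmic reticulum, and NRF1 is known for raising proteasome genes. Small MAF proteins have no activation domain of their own, so the partner sets the direction. In pancreatic cancer cells this network is known for control of heme breakdown, iron storage and glutathione.

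The guide is shown because it made the sgBACH1 libraries, and 3 promoter stretches because they hold letters that CNC dimers are known to recognise. The guide, with its PAM in capitals, matched *BACH1* at chr21:29321457-29321479 on the plus strand (GRCh38), in exon 2 of 5 and the first coding exon, where the cut falls after codon 64 of 736.
guide against BACH1: ccactcaagaatcgtaggccAGG
In the promoter windows of RefSeq (GRCh38.p14), which run across each start site, 14 windows were found for 8 of the 9 genes, all but *MAFK*. The antioxidant response element core TGACNNNGC was searched on both strands. It was present in 2 of the 14 windows, those of *KEAP1* and *MAFF*, and in 13.3% of 35116 promoters. The core TGAGTCA, which AP-1 factors also bind, was present in 1 of the 14, that of *BACH1*, and in 4.95% of all promoters. The longer form with TGC directly before this core, as small MAF proteins favour, was present in 0 of the 14 and in 0.154% of all promoters. These counts are small and near the shares of all promoters, so nothing is read from them about the 9 genes. The stretches below are given on the strand of the gene, with the matches in capitals.
BACH1 promoter, chr21:29298849-29298905, plus strand: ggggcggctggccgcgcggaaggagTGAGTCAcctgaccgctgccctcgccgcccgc
KEAP1 promoter, chr19:10502772-10502850, minus strand: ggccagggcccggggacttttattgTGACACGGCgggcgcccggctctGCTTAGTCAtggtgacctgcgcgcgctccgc
MAFF promoter, chr22:38201847-38201905, plus strand: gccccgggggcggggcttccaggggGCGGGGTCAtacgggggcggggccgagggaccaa
The match in *BACH1* begins 48 bases before the start site of its window, those in *KEAP1* 54 and 31 bases before theirs, and that in *MAFF* 122 bases before its own. Each of these 3 genes has at least 1 other window among the 14, without a match. The *MAFF* match and the nearer *KEAP1* match read on the opposite strand. These are matches of letters, not measured binding sites.

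Libraries held 13099706 to 21478886 counts. Replicate 2 of siCont was unlike its fellows (29.5 and 35.2 by chi-square per degree of freedom, where the other replicate pairs of the 4 groups gave 6.89 to 13.9), so a named siRNA result is given with and without it where leaving it out changes the call or moves the log2 value by over 1.5 times. All 8 ductal and epithelial marker genes exceeded 1 CPM in every group, while the acinar, endocrine, leukocyte, erythroid, endothelial and fibroblast lists had no marker above 1 CPM on average in any group (summed to at most 2.11 CPM in any library), and *INS* and *GCG* had no count. The summed ductal markers ranged from 18900 to 20500 CPM in sgCont and from 12200 to 13700 CPM in sgBACH1, and from 11500 to 13300 CPM in the siRNA libraries. *KRT8* had the largest part of this sum, at a mean of 10910 CPM in sgCont and 6922 CPM in sgBACH1. The markers did not move as 1 in sgBACH1. *KRT7*, *KRT8*, *KRT18* and *KRT19* fell there (log2 -1.81, -0.66, -0.74 and -0.32). *EPCAM*, *CDH1*, *MUC1* and *SOX9* rose (log2 0.54, 0.57, 0.38 and 0.62), and edgeR called all 8, where it called 23.5% of all genes. In siBACH1 *KRT7* and *KRT19* fell (log2 -1.48 and -0.41) and *CDH1*, *MUC1* and *SOX9* rose (log2 0.84, 0.60 and 0.48). *KRT8*, *KRT18* and *EPCAM* were not called in siBACH1 (log2 0.17, 0.20 and -0.05), where 23.9% of all genes were. Marker values without siCont replicate 2 are not given. The part of these markers in the results of either experiment was not tested. The labels do not state that the replicates came from separate cultures, so each p-value reflects the variation among these libraries alone, possibly technical. CPM are counts made comparable between libraries by edgeR's TMM method within each experiment, and RPKM are CPM per kilobase of annotated exon, the scale used to compare genes with each other.

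On the RPKM scale the activators *NFE2L1* and *NFE2L2*, the repressor *BACH1* and *KEAP1* were the abundant transcripts, and the small MAF partners, *NFE2L3* and *BACH2* were the scarce ones. In siCont the levels were 38.4 ± 10.5 RPKM for *NFE2L1*, 29.7 ± 7.25 for *BACH1*, 29.3 ± 7.17 for *NFE2L2* and 26.2 ± 2.87 for *KEAP1* (SD, n = 3), and neighbours in that order did not differ beyond their spread. In sgCont they were 44.5 ± 2.12 RPKM for *NFE2L1*, 36.2 ± 1.71 for *BACH1*, 31.3 ± 1.23 for *KEAP1* and 20.6 ± 1.09 for *NFE2L2* (SD, n = 3), each step larger than the spread. *BACH1* was second in level in both control groups, but stood at 3.34 ± 0.219 RPKM in siBACH1, under *MAFK*, and at 26.0 ± 2.15 RPKM in sgBACH1, under *KEAP1* and within the spread of *NFE2L2* (28.2 ± 2.72 RPKM). Among the scarce genes *MAFG* led in every group per kilobase of exon, from 6.99 ± 0.812 RPKM in sgCont to 11.4 ± 0.726 RPKM in siBACH1. *MAFK* lay between 4.14 and 5.70 RPKM and *MAFF* between 2.55 and 6.16 RPKM on average. In sgCont *MAFG*, *MAFF* and *NFE2L3* followed each other at 6.99, 6.16 and 5.77 RPKM with overlapping spreads. The order depends on the length used: per kilobase of the longest transcript *NFE2L2* stood first in siCont at 61.4 RPKM, and first in siBACH1 and sgBACH1 too. On that scale *MAFF* stood above *MAFG* in sgCont (10.5 against 7.24 RPKM).

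**Figure D1:**
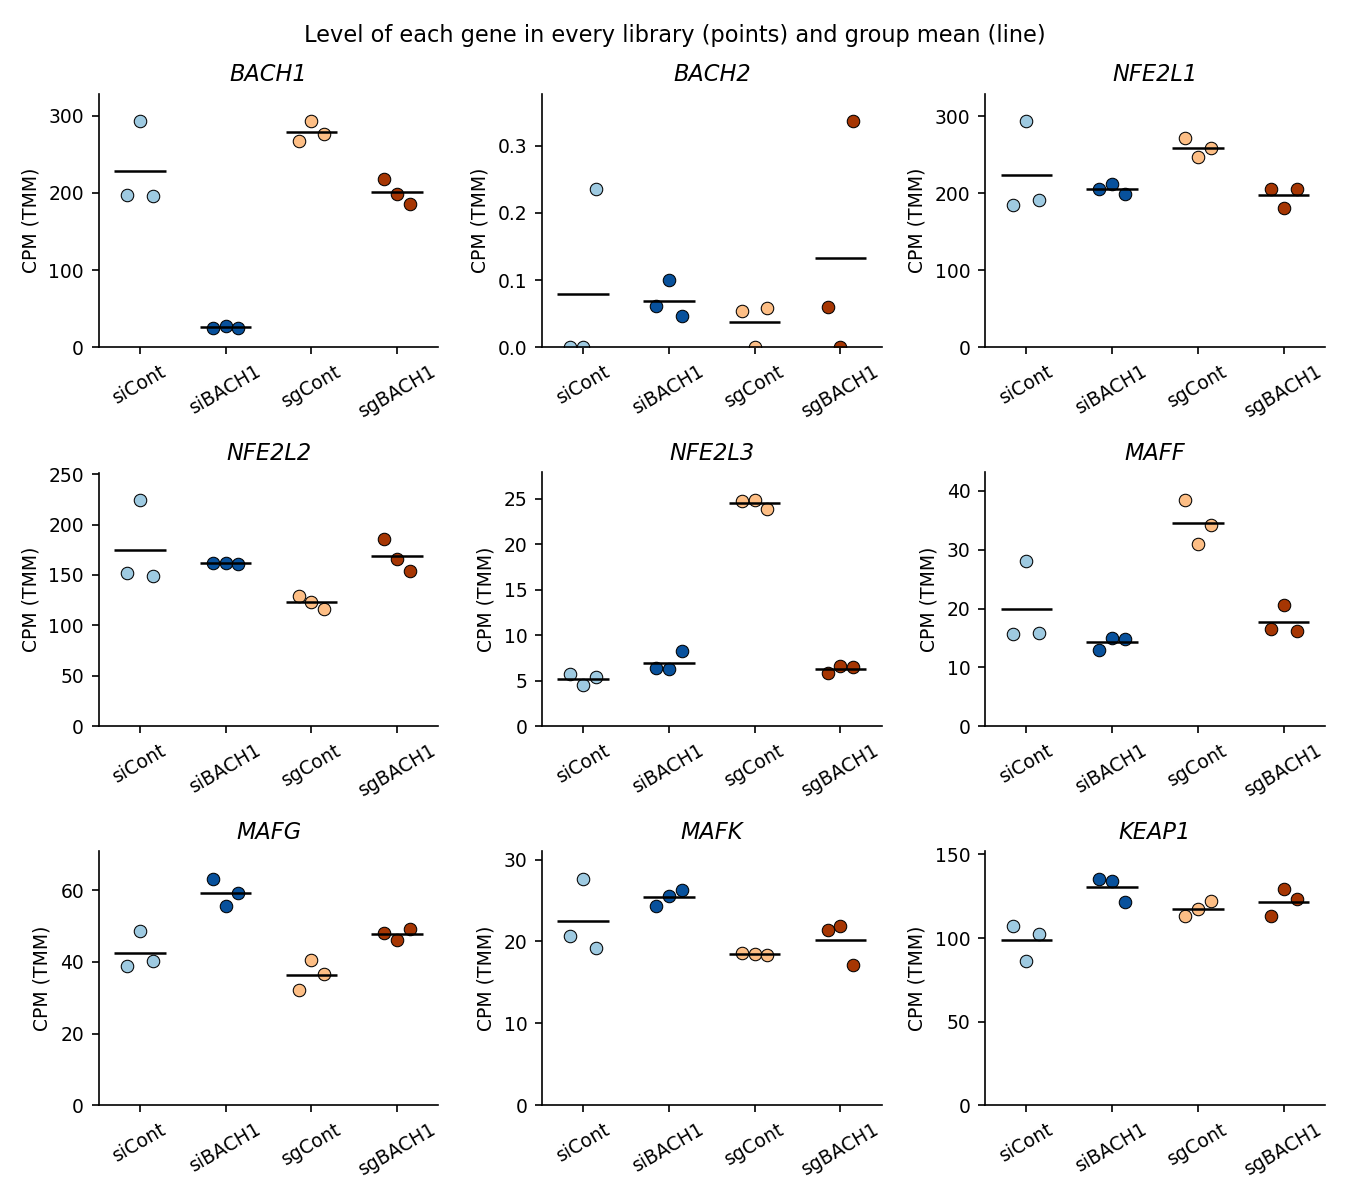
Level of each of the 9 genes in CPM (y axis, linear, own scale per gene) in the 12 libraries, with points for libraries and a line for the group mean. *BACH1* is low in siBACH1, and *NFE2L3* is at 23.9 to 24.9 CPM in sgCont and at no more than 8.32 CPM in the other 9 libraries. In siCont replicate 2 is the high point for *BACH1*, *NFE2L1*, *NFE2L2*, *MAFF*, *MAFG* and *MAFK* and the low point for *NFE2L3* and *KEAP1*.

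*BACH1* itself (ENSG00000156273.11, chr21:29194071-29630751, plus strand, GRCh38), the repressor that was targeted, checks the labels. It stood at 196.9, 293.7 and 196.5 CPM in siCont and at 24.9, 27.7 and 24.7 CPM in siBACH1. The groups lay far apart, and siCont replicate 2 was the highest library. The level fell 8.88-fold (log2 -3.15 ± 0.17 SE, edgeR adjusted p = 4.09e-06). In the guide RNA experiment *BACH1* stood at 267.8, 293.7 and 276.4 CPM in sgCont and at 218.3, 198.1 and 185.3 CPM in sgBACH1. All 3 sgBACH1 libraries lay below all 3 controls, and most of the transcript was still counted. The fall was 1.39-fold (log2 -0.48 ± 0.08 SE, edgeR adjusted p = 4.48e-05). Fewer cells with the transcript and less of it per cell cannot be told apart in bulk RNA, and a count over the whole gene does not measure intact coding sequence or protein. The fall was smaller in sgBACH1 than in siBACH1 by 2.67 ± 0.18 on the log2 scale (SE, edgeR adjusted p = 1.5e-08 for the difference of the responses).

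*BACH2* (ENSG00000112182.10, chr6:89926529-90296908, minus strand), the relative of BACH1 best known from B lymphocytes, was close to absent. It had 4 counts over the 3 siCont libraries, 4 over siBACH1, 2 over sgCont and 8 over sgBACH1, 7 of the last in a single library. It did not pass the filter on low counts and was not tested, so a change in *BACH2* was not detectable at this depth. The other 8 genes passed in every comparison.

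*NFE2L2* (ENSG00000116044.11, chr2:177227595-177392697, minus strand), which encodes NRF2, the main activator at the shared sites, rose in the guide RNA experiment while *BACH1* fell. It stood at 129.6, 122.8 and 116.6 CPM in sgCont and at 186.0, 166.1 and 153.7 CPM in sgBACH1. All 3 sgBACH1 libraries were higher than the controls. It rose 1.37-fold (log2 0.45 ± 0.09 SE, edgeR adjusted p = 0.000265), a call that held without any 1 library and with every other tool and scaling run. In the siRNA experiment it stood at 152.4, 224.7 and 148.6 CPM in siCont and at 161.8, 161.6 and 161.0 CPM in siBACH1. The siBACH1 libraries lay inside the range of siCont, with a log2 value of -0.12 ± 0.15 (SE, edgeR adjusted p = 0.607) that became 0.095 without siCont replicate 2 (adjusted p = 0.226). The responses differed by 0.56 ± 0.17 on the log2 scale (SE, edgeR adjusted p = 0.0255) and by 0.35 without siCont replicate 2 (adjusted p = 0.0181). The difference lost its call without siBACH1 replicate 1, 2 or 3 (adjusted p = 0.0557, 0.0554 and 0.0566), sgCont replicate 3 (0.0622) or sgBACH1 replicate 1 (0.0796). The sgCont libraries held the low level of *NFE2L2*. Scaled over all 12 libraries the means were 123.9 CPM in sgCont, 173.3 in siCont, 160.4 in siBACH1 and 169.8 in sgBACH1. A gene on the same strand shares 17.6% of the annotated exon bases of *NFE2L2*, so part of its counts is uncertain.

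*NFE2L1* (ENSG00000082641.11, chr17:48048329-48061487, plus strand), which encodes NRF1, the sensor of lost proteasome activity, went the other way from *NFE2L2* in sgBACH1. It stood at 271.7, 247 and 259.1 CPM in sgCont and at 205.5, 181.2 and 205.1 CPM in sgBACH1. Every sgBACH1 library was lower than every control. It fell 1.31-fold (log2 -0.39 ± 0.08 SE, edgeR adjusted p = 0.000383), a call that held under every alternative run. In siCont it stood at 185, 294.2 and 191.5 CPM and in siBACH1 at 205.9, 212.2 and 199.3 CPM. The siBACH1 values again lay within the siCont range (log2 -0.12 ± 0.16 SE, edgeR adjusted p = 0.635). Without siCont replicate 2 the siRNA value was 0.12 (adjusted p = 0.114), and the difference of the responses went from -0.28 ± 0.18 SE (edgeR adjusted p = 0.298) to -0.52 (adjusted p = 0.000348).

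*NFE2L3* (ENSG00000050344.8, chr7:26152240-26187125, plus strand), which encodes NRF3, a relative of NRF1 studied mainly in tumours of the gut, had the largest change among the 9 genes in the guide RNA experiment. It stood at 24.8, 24.9 and 23.9 CPM in sgCont and at 5.87, 6.59 and 6.51 CPM in sgBACH1. The gap between the groups was many times the spread within them. It fell 3.87-fold (log2 -1.95 ± 0.19 SE, edgeR adjusted p = 2e-08), and leaving out any 1 library gave -1.98 to -1.90. In the siRNA experiment it stood at 5.77, 4.55 and 5.36 CPM in siCont and at 6.40, 6.28 and 8.32 CPM in siBACH1. The groups did not overlap, but the difference did not pass the test (log2 0.42 ± 0.20 SE, edgeR adjusted p = 0.168). The responses differed by -2.38 ± 0.25 on the log2 scale (SE, edgeR adjusted p = 3.01e-06). The sgCont libraries held the high level: scaled over all 12 libraries the means were 24.7 ± 0.511 CPM in sgCont, 5.17 ± 0.642 in siCont, 6.96 ± 1.15 in siBACH1 and 6.37 ± 0.398 in sgBACH1 (SD, n = 3). The control groups of the experiments differ in vector, selection and table, which cannot be told apart.

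*MAFF* (ENSG00000185022.7, chr22:38200767-38216511, plus strand) encodes the small MAF factor known to be induced by stress and cytokines. It stood at 38.5, 31.04 and 34.2 CPM in sgCont and at 16.5, 20.5 and 16.1 CPM in sgBACH1. The lowest control was well above the highest sgBACH1 library. It fell 1.96-fold (log2 -0.97 ± 0.15 SE, edgeR adjusted p = 3.56e-05), with -1.09 to -0.88 when any 1 library was left out. In the siRNA experiment it stood at 15.7, 28.2 and 15.8 CPM in siCont and at 12.9, 15.1 and 14.9 CPM in siBACH1. All siBACH1 libraries lay below the controls, and the difference did not pass (log2 -0.47 ± 0.22 SE, edgeR adjusted p = 0.165). Most of its size came from siCont replicate 2, without which it was -0.14 (adjusted p = 0.481). The difference of the responses was -0.51 ± 0.27 (SE, edgeR adjusted p = 0.207) and -0.83 without that library (adjusted p = 0.00559). The sgCont libraries held the high level of *MAFF*. Scaled over all 12 libraries the means were 34.9 CPM in sgCont, 19.7 in siCont, 14.2 in siBACH1 and 17.8 in sgBACH1.

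*MAFG* (ENSG00000197063.6, chr17:81918270-81927714, minus strand), the small MAF gene known as a target of NRF2 and BACH1 in its own right, was higher in both experiments. It stood at 38.9, 48.6 and 40.3 CPM in siCont and at 63.3, 55.7 and 59.2 CPM in siBACH1. The groups did not overlap, and it rose 1.39-fold (log2 0.48 ± 0.11 SE, edgeR adjusted p = 0.0121). In the guide RNA experiment it stood at 32.2, 40.6 and 36.7 CPM in sgCont and at 48.2, 46.3 and 49.2 CPM in sgBACH1. Again no library crossed over, and it rose 1.31-fold (log2 0.39 ± 0.12 SE, edgeR adjusted p = 0.0205). The responses differed by -0.09 ± 0.16 on the log2 scale (SE, edgeR adjusted p = 0.742). Both calls are close to the threshold. The siRNA call was lost without siCont replicate 1 (adjusted p = 0.0509), siBACH1 replicate 1 (0.0659) or siBACH1 replicate 3 (0.0517), and the other without sgCont replicate 1 (0.0933) or sgBACH1 replicate 1, 2 or 3 (0.0704, 0.0515 and 0.0839).

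*MAFK* (ENSG00000198517.5, chr7:1530714-1543043, plus strand), the remaining partner, passed in neither experiment when all libraries were used. It stood at 20.6, 27.7 and 19.1 CPM in siCont and at 24.3, 25.6 and 26.3 CPM in siBACH1. The groups overlapped (log2 0.18 ± 0.15 SE, edgeR adjusted p = 0.418), and without siCont replicate 2 the value was 0.35 and passed (adjusted p = 0.0226). In sgCont it stood at 18.5, 18.5 and 18.3 CPM and in sgBACH1 at 21.4, 21.8 and 17.1 CPM, which also overlapped (log2 0.12 ± 0.17 SE, edgeR adjusted p = 0.678). *TMEM184A* on the opposite strand shares 18.1% of the annotated exon bases of *MAFK*, and the use of strand in counting was not given in the sources used here.

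The makeup of the small MAF pool followed from these values. *MAFG* made up 49.2% ± 3.44 of the summed RPKM of the trio in siCont and 58.0% ± 2.68 in siBACH1, and 40.4% ± 4.36 in sgCont and 54.6% ± 3.75 in sgBACH1 (SD, n = 3). *MAFF* made up 20.7% ± 3.18 in siCont and 13.0% ± 1.23 in siBACH1, and 35.6% ± 4.11 in sgCont and 18.7% ± 2.01 in sgBACH1. In both experiments each library with *BACH1* targeted had a larger share of *MAFG* and a smaller share of *MAFF* than each of its controls. The sum of the trio stood at 16.7 ± 3.26 RPKM in siCont, 19.6 ± 0.462 in siBACH1, 17.3 ± 0.173 in sgCont and 16.8 ± 0.666 in sgBACH1. Libraries overlapped in both experiments, but in the siRNA experiment only through siCont replicate 2 (20.5 RPKM). The other siCont libraries stood at 14.9 and 14.8 RPKM, below the 19.1 to 19.9 RPKM of siBACH1. *BACH1* per *NFE2L2* transcript, on the RPKM scale, ranged from 1.00 to 1.02 in siCont, from 0.119 to 0.133 in siBACH1, from 1.60 to 1.85 in sgCont and from 0.909 to 0.934 in sgBACH1. Within siCont this ratio varied little although replicate 2 was high for both genes. Shares and ratios are descriptions with no test, and they depend on the annotated lengths.

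**Figure D2:**
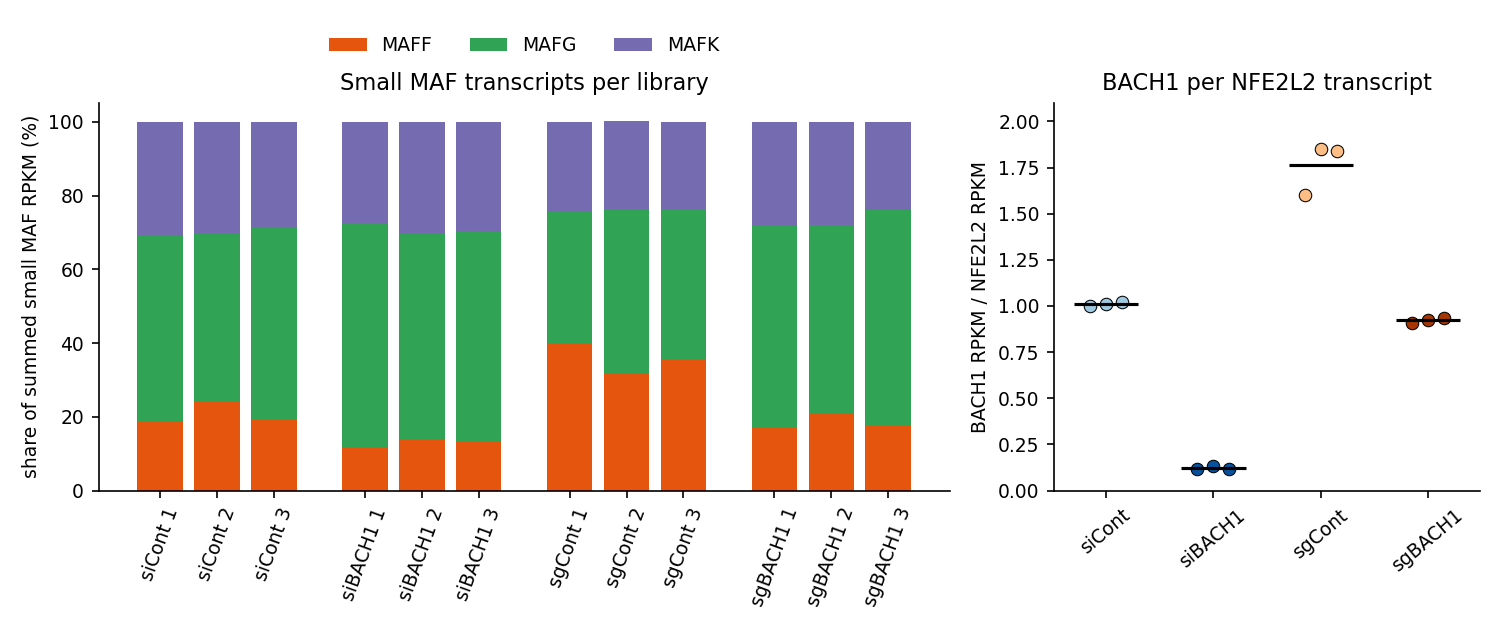
Left, share of *MAFF*, *MAFG* and *MAFK* in their summed RPKM (y axis, percent) in each library. Right, ratio of *BACH1* to *NFE2L2* RPKM (y axis) per library, with a line for the group mean; the *MAFF* share is smaller in siBACH1 and sgBACH1 than in their controls, and the ratio is near 0.124 in siBACH1 and near 0.922 in sgBACH1.

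*KEAP1* (ENSG00000079999.9, chr19:10486120-10503741, minus strand), the adaptor that marks NRF2 for degradation, was higher after the siRNA. It stood at 106.9, 86.4 and 102.6 CPM in siCont and at 135.5, 134.2 and 121.6 CPM in siBACH1. No siBACH1 library fell within the range of siCont, and it rose 1.32-fold (log2 0.40 ± 0.10 SE, edgeR adjusted p = 0.0166). The call was lost without siBACH1 replicate 1 (adjusted p = 0.0818) or 2 (0.0811). In sgCont it stood at 113.2, 117.2 and 122.4 CPM and in sgBACH1 at 113.3, 129.1 and 123.1 CPM. These libraries were interleaved (log2 0.05 ± 0.08 SE, edgeR adjusted p = 0.735). The difference of the responses was -0.36 ± 0.13 on the log2 scale and did not pass with edgeR (adjusted p = 0.0574), while it passed with DESeq2 (0.04), with limma-voom (0.0483) and, with edgeR, without siCont replicate 1 (0.035).

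**Figure D3:**
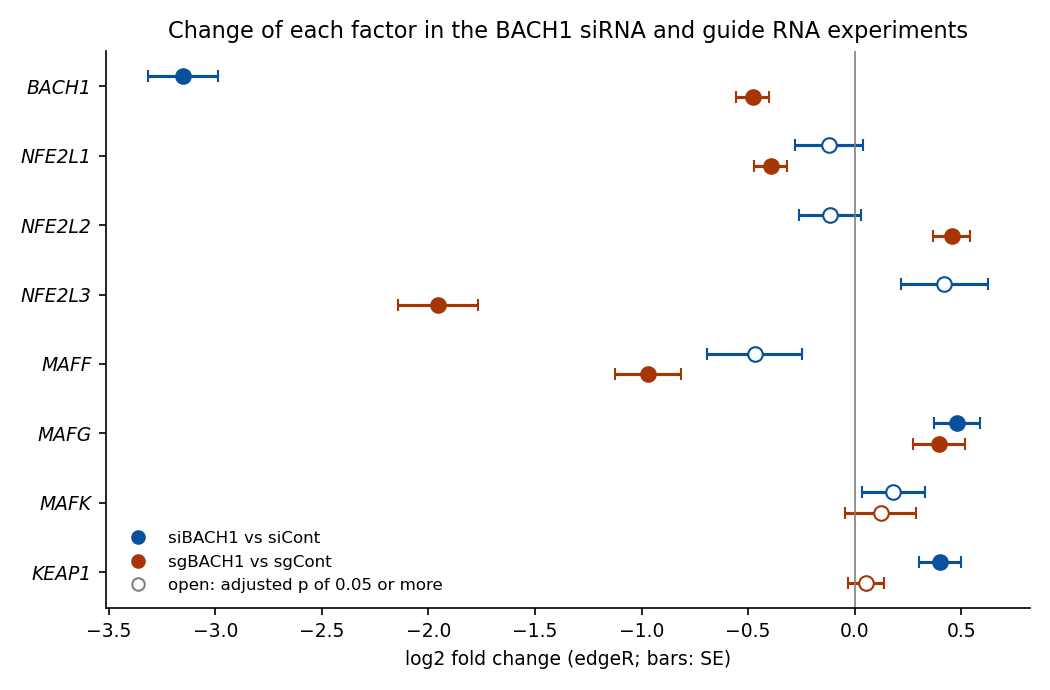
Log2 fold change (x axis) of the 8 tested genes in siBACH1 against siCont and in sgBACH1 against sgCont; bars are standard errors and filled points passed an edgeR adjusted p below 0.05. *MAFG* lies above 0 in both experiments, and *NFE2L3* at -1.95 in sgBACH1 lies opposite to its siRNA value of 0.42, which did not pass.

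Counted over the 8 tested genes, 3 changed in the siRNA experiment, where 23.9% of all 14591 genes tested were called. *BACH1* fell and *MAFG* and *KEAP1* rose. The groups did not overlap for 5 of the 8, against 42.5% of all genes. In the guide RNA experiment 6 of the 8 changed, where 23.5% of 14469 genes were called. *BACH1*, *NFE2L1*, *NFE2L3* and *MAFF* fell and *NFE2L2* and *MAFG* rose. The groups did not overlap for 6 of the 8, against 36.5% of all genes. *BACH1* and *MAFG* were called in both experiments, in the same direction, while 8.34% of the 13845 genes tested in both were called in both (2.31% higher in both, 2.51% lower in both and 3.52% in opposite directions). The responses of *BACH1*, *NFE2L2* and *NFE2L3* differed between the experiments, 3 of 8 where 23.6% of 15644 genes did. Each of these counts includes *BACH1*, the targeted gene, whose fall was the aim of both experiments, so the shares of all genes are no like comparison for it. Apart from *BACH1*, only *MAFG* was called in both. The median log2 fold change of all genes was 0.005 in the siRNA experiment and 0.00552 in the other.

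Genes of the KEAP1 complex and of NRF2 turnover were called no more often than all genes. Of 14, 2 passed in siBACH1, both upwards (median log2 0.04), where 23.9% of all genes passed, and 2 rose and 1 fell in sgBACH1 (median 0.04), where 23.5% did. *SQSTM1*, which encodes the autophagy receptor p62 that traps KEAP1 and is itself an NRF2 target, rose in both. Its mean went from 1035 ± 65.6 to 1685 ± 49.2 CPM in siBACH1 (log2 0.70 ± 0.07 SE, edgeR adjusted p = 0.000155) and from 889.5 ± 39.0 to 1197 ± 31.4 CPM in sgBACH1 (log2 0.43 ± 0.06 SE, edgeR adjusted p = 1.37e-05). *TRIM21*, a ubiquitin ligase that acts on p62, rose by 0.51 in siBACH1 (edgeR adjusted p = 0.0162), but not without siCont replicate 1 (0.0637) or siBACH1 replicate 2 (0.0832) or 3 (0.0691). *AMER1*, a scaffold of Wnt signalling known to bind KEAP1, rose by 0.93 in sgBACH1 and stood at 0.68 in siBACH1 (edgeR adjusted p = 0.0878; 0.38 and 0.00443 without siCont replicate 2). *PGAM5*, a mitochondrial phosphatase that anchors KEAP1, fell by 0.50 in sgBACH1. There the tested genes nearest to each on its chromosome moved alike, with 27 of 100 rising and 3 falling around *AMER1* and 2 of 61 rising and 21 falling around *PGAM5*, and the part of this in their change was not tested. *CUL3* and *RBX1*, the ligase core, passed in neither experiment.

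Of 7 tested genes of NRF1 processing, 2 rose and 1 fell in siBACH1 (median log2 0.07), where 10.9% of all genes rose and 13% fell. *FBXW7*, an F-box protein that targets nuclear NRF1, rose by 0.77 ± 0.10, and *DDI2*, the protease that cuts NRF1 free, rose by 0.58 ± 0.09 (SE, edgeR adjusted p = 0.00066 and 0.00161). *SEL1L*, the adaptor of the membrane ubiquitin ligase that keeps NRF1 low, fell by 0.89 ± 0.18 (SE, edgeR adjusted p = 0.00652), and by 0.62 without siCont replicate 2. In sgBACH1, where 11.3% of all genes rose and 12.3% fell, 1 of the 7 passed with edgeR. It was *OGT*, a sugar transferase that stabilises NRF1, with a rise of 0.26 (adjusted p = 0.0179; median of the list 0.04). *SEL1L* stood at -0.25 there (edgeR adjusted p = 0.0554) and passed with DESeq2 (0.0415), with the replicate block (0.0431) and without sgCont replicate 1 (0.0409). *OGT* lost its call without sgCont replicate 3 (adjusted p = 0.0643) or sgBACH1 replicate 1 (0.0911) or 2 (0.0676), and 39 of the 100 tested genes around it on the X chromosome rose and 1 fell, with a median of 0.64. The part of its neighbourhood was not tested.

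*FBXL17* and *FBXO22*, which encode F-box proteins that act on BACH1, fell in siBACH1. Of 6 genes for turnover and nuclear export of the BACH1 protein, these 2 fell and 1 rose (median log2 -0.45), where 13% of all genes fell and 10.9% rose. None passed with edgeR in sgBACH1 (median -0.06), where 23.5% of all genes did. In sgBACH1 2 of the 6 had an unadjusted p below 0.05, *BAP1* (log2 -0.23) and *FBXL17* (log2 0.37). DESeq2 called the former (adjusted p = 0.0256) and limma-voom the latter (0.0325). The share of all genes with such an unadjusted p is not given. With edgeR *BAP1* passed with a spread shared by all 12 libraries (0.0411), and *FBXL17* with the replicate block (0.0364) and without sgCont replicate 2 (log2 0.59, adjusted p = 0.00225). *FBXL17*, an F-box protein that marks BACH1 for degradation, fell from 48.8 ± 6.33 to 16.0 ± 2.12 CPM (SD, n = 3; log2 -1.61 ± 0.14 SE, edgeR adjusted p = 5.9e-05). *FBXO22*, which does the same to heme-bound BACH1, fell from 33.9 ± 2.54 to 21.3 ± 3.01 CPM (log2 -0.67 ± 0.13 SE, edgeR adjusted p = 0.0053). The deubiquitinase gene *BAP1* rose by 0.30 (edgeR adjusted p = 0.0258), but not without any 1 library other than siCont replicate 2 (adjusted p from 0.0582 to 0.115) or with the replicate block (0.06). The responses of *FBXL17* differed by 1.97 ± 0.22 on the log2 scale (SE, edgeR adjusted p = 5.74e-06).

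Matches to a short sequence in 3′ untranslated regions were counted beside the calls in siBACH1. Either AACATTA or ACATTAA was present in 57.7% of genes that fell and had such a region to search. It was present in 15.7% of genes that rose and in 23.8% of genes not called. The sequences were taken up from earlier results on these same data, so these shares are a description and no independent support. They were not adjusted for the length of the region. *BACH1* carries both, *BACH2* the first and *MAFG*, which rose, the second, while *NFE2L1*, *NFE2L2*, *NFE2L3*, *MAFF*, *MAFK* and *KEAP1* carry neither. *FBXL17*, *FBXO22* and *SEL1L* carry a match, and so does *SQSTM1*, which rose. Its part in these changes was not tested.

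The other 4 CNC and large MAF genes read here were scarce. *NFE2*, the erythroid CNC factor, stood at 0.0207 CPM or less on average in every group, and *MAF* at 0.193 CPM or less. Neither was tested. *MAFA* stood at 0.583 ± 0.56 CPM in siCont and 0.389 ± 0.377 in siBACH1, and *NRL* at 0.365 ± 0.309 and 0.677 ± 0.0702 (SD, n = 3). Neither *MAFA* nor *NRL* passed in siBACH1 (edgeR adjusted p = 0.8 and 0.289, unadjusted p = 0.686 and 0.145; limma-voom adjusted p = 0.975 and 0.188), and none of the 4 genes was tested in sgBACH1.

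Genes known to have sites shared by BACH1 and NRF2 were read in the same libraries. Of 22, 15 rose and 3 fell in siBACH1 (median log2 1.03), where 10.9% of all genes rose and 13% fell. In sgBACH1 15 rose and 1 fell (median 1.10), where 11.3% of all genes rose and 12.3% fell. The list was chosen with earlier results of these data known, so these shares are a description and no independent support. *HMOX1*, heme oxygenase, stood at 6.63 ± 0.568 CPM in siCont and 173.6 ± 7.12 in siBACH1, and at 8.99 ± 2.48 in sgCont and 474.1 ± 32.5 in sgBACH1 (SD, n = 3). It rose by 0.99 ± 0.20 more on the log2 scale in sgBACH1 (SE, edgeR adjusted p = 0.00141 for the difference), although the *BACH1* transcript fell less there. *GCLM*, a subunit of the first enzyme of glutathione synthesis, rose by 2.64 ± 0.14 in siBACH1 and 3.60 ± 0.16 in sgBACH1, and the bile pigment exporter *ABCC2* rose by 1.42 and 2.41 (difference 0.99, edgeR adjusted p = 1.86e-05). *AKR1B10*, an aldehyde reductase, rose by 1.73 and 2.92. *TRIM16L* rose by 2.197 in siBACH1 and 1.15 in sgBACH1, where it lost its call without sgBACH1 replicate 2 (adjusted p = 0.215) or any other library than sgCont replicate 1 (0.0505 to 0.0652), with the replicate block (0.0541) and with no filter (0.0533).

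The falls in that list were those of *TXN*, *TXNRD1* and *SLC7A11* in siBACH1 and of *BLVRB* in sgBACH1, of which all but *TXN* are named because of this count, after their values were seen. *TXN*, thioredoxin, fell by 2.02 ± 0.08 in siBACH1 and rose by 0.65 ± 0.08 in sgBACH1. *TXNRD1*, its reductase, fell by 1.05 ± 0.20, and *SLC7A11*, the cystine importer, fell by 1.26 ± 0.31 and rose by 1.01 ± 0.08 in sgBACH1. Without siCont replicate 2 the values were -0.74 for *TXNRD1* and -0.69 for *SLC7A11* and still passed (edgeR adjusted p = 3.43e-10 and 1.63e-08). With siBACH1 replicate 1, 2 or 3 left out the fall of *SLC7A11* did not pass (edgeR adjusted p = 0.076, 0.0737 and 0.0612). *BLVRB*, biliverdin reductase B, fell by 0.32 in sgBACH1, but not without any 1 library other than sgCont replicate 2 (adjusted p from 0.0631 to 0.197). In siBACH1 it stood at 0.25 (edgeR adjusted p = 0.0592), and passed without siCont replicate 2 (0.20, adjusted p = 0.0224) and with upper quartile scaling (0.0417). Of the 22 genes, 7 carry one of the short sequences above: these 4, and *GCLC*, *ME1* and *ABCC2*, which rose in siBACH1.

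**Figure D4:**
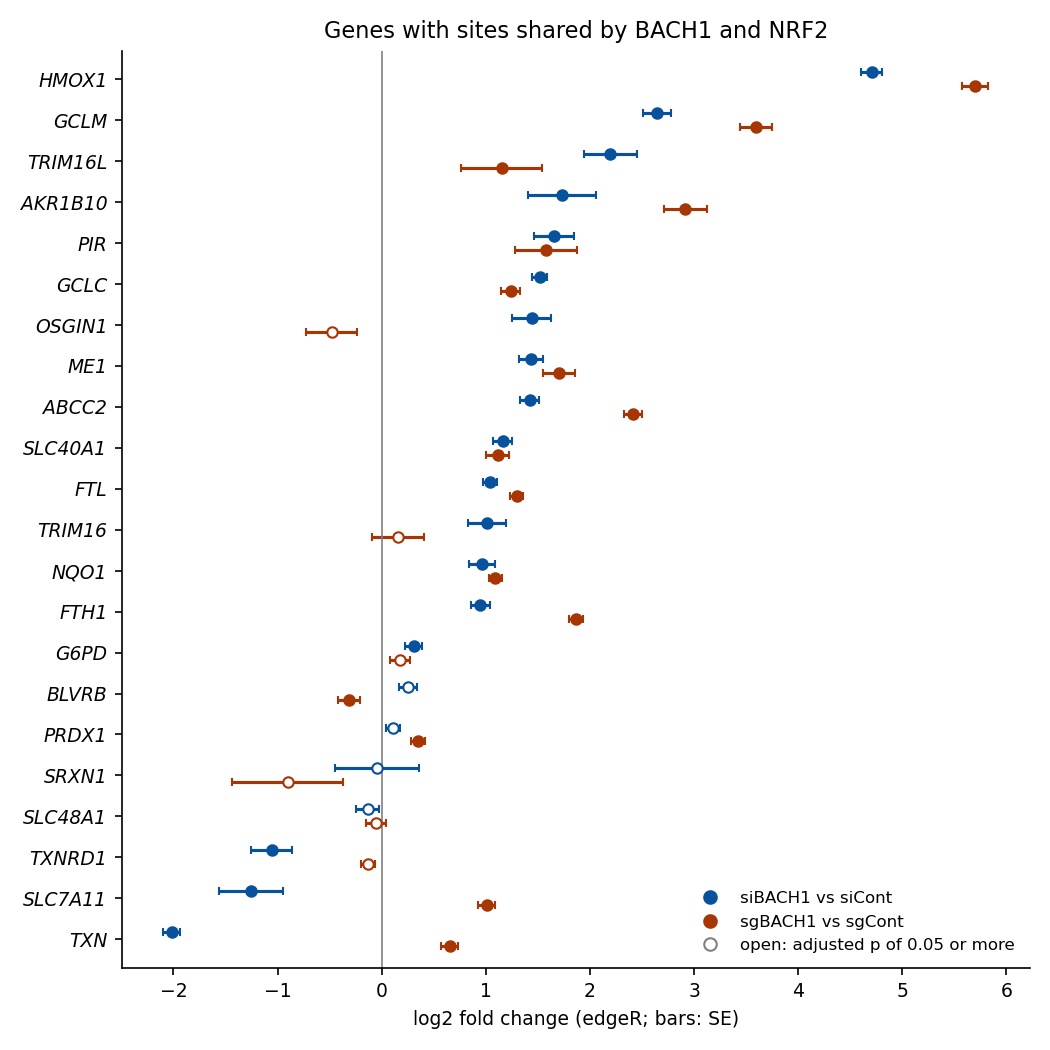
Log2 fold change (x axis) of 22 genes with sites shared by BACH1 and NRF2, in siBACH1 against siCont and in sgBACH1 against sgCont; bars are standard errors and filled points passed an edgeR adjusted p below 0.05. *HMOX1* lies highest in both, and *TXN* and *SLC7A11* lie below 0 in siBACH1 and above it in sgBACH1.

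The surroundings of the 8 tested factors on their chromosomes were also read, since blocks of neighbouring genes moved together elsewhere in sgBACH1. Over up to 100 tested neighbours the median log2 fold change in sgBACH1 lay between -0.06, around *MAFF*, and 0.13, around *NFE2L2*, where 18 neighbours rose and 11 fell. Around *NFE2L3*, which fell by 1.95, it was -0.02, with 17 rising and 19 falling, and around *BACH1* it was 0.06 over 74 neighbours. In siBACH1 the medians lay between -0.20, around *NFE2L2*, and 0.17, around *MAFG*.

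*BACH1* and *MAFG*, the genes called in both experiments, were set against 12399 other genes by the Pearson correlation of log2 CPM over the 12 libraries, each centred on the mean of its experiment. Nearest to *BACH1* were *SPCS3* (0.997), *WASHC4* (0.995) and *SPTLC2* (0.993). Nearest to *MAFG* were *FADS3* (0.972), *SECTM1* (0.962) and *GPAT3* (0.957). The libraries of a group share their treatment, and centring makes the 2 group means of each experiment equal and opposite. These values therefore describe likeness over 2 contrasts rather than 12 independent conditions. For *BACH1* the siRNA contrast is much the larger (log2 -3.15 in siBACH1 and -0.48 in sgBACH1), so its values rest mostly on that experiment.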

How the data were processed

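RNA of the 12 AsPC-1 libraries was sequenced on an Ion Proton after rRNA depletion, per the labels' protocols. The files hold raw counts of reads for each gene in 1 table per experiment, which the authors made with HTSeq 0.9.1 and SAMtools on genome hg19, per the submitters' processing notes. The aligner, counting mode and use of strand were not given in the sources used here, and rRNA depletion keeps unspliced RNA in the counts. Groups follow the sample titles. Of 57820 identifiers, 51996 took a symbol from a table of current gene names and 342 from GENCODE 29 alone. Coordinates, exon lengths and 3′ UTRs come from GENCODE 29 on GRCh38, and none was compared with positions in hg19.

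Tests of these counts used edgeR 4.0.16 (R 4.3.3) with TMM scaling, filterByExpr with a minimum count of 10, two-sided quasi-likelihood tests without a replicate block, Benjamini-Hochberg adjustment over all genes tested and a threshold of 0.05. Each experiment was fitted alone, and the difference of the responses by a contrast of the 4 group means fitted to all 12 libraries. The standard error given is the log2 fold change divided by the square root of F. Likeness used log2 of CPM plus 0.5 among genes tested in both experiments with a mean of at least 1. Neighbours are the 50 tested genes on each side.

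The 9 genes and the gene lists were chosen with earlier results of these data known. The text names all 9, the called genes with the 4 largest changes per list and experiment, every tested gene of lists with 5 or fewer, and the 3 genes most like a factor called in both. Alternatives were DESeq2 1.42.0, limma-voom (limma 3.58.1), RLE and upper quartile scaling, no filter, a replicate block, each library left out, a shared spread over 12 libraries, the longest transcript as length, and library totals alone. The edgeR steps were also tested on simulated counts, where the share of false calls was above the threshold in the simulated siRNA comparison and not above it in the others. Genes that are not reported here were left out of the lists and their counts.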

Additional observations from a re-analysis of the deposited data

Results flagged for a closer look

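Each value here is the log2 response of sgBACH1 minus that of siBACH1, and each is listed because edgeR called the difference itself at an adjusted p below 0.05. The experiments differ in method, vector and control, which cannot be told apart. The labels give a harvest time for the siRNA experiment alone. Among the 9 factors and regulators the differences were those of *BACH1* (2.67), *NFE2L2* (0.56) and *NFE2L3* (-2.38).

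Among genes of NRF2, NRF1 and BACH1 turnover they were *SQSTM1* (-0.28), *TRIM21* (-0.90), *PGAM5* (-0.67), *DDI2* (-0.41), *SEL1L* (0.63), *FBXO22* (0.58), *FBXL17* (1.97) and *BAP1* (-0.54). Those of *SQSTM1*, *PGAM5*, *DDI2*, *SEL1L* and *FBXO22* lost their call without some single libraries, with adjusted p up to 0.0765, 0.0936, 0.102, 0.0816 and 0.0828. With no filter *SQSTM1* (0.0765) and *DDI2* (0.126) lost theirs too. Among AP-1 factors and NRF2 coactivators they were *JUNB* (1.30), *FOS* (2.51), *FOSB* (1.80), *FOSL2* (-1.38), *ATF3* (2.25) and *CREBBP* (-0.94). Of these *FOSB* and *ATF3* lost their call without some single libraries, with adjusted p up to 0.0872 and 0.0689, and with limma-voom (0.0619 and 0.117).

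Of the 22 genes with shared sites 12 differed, 9 with a higher and 3 with a lower response in sgBACH1. Of all 15644 genes tested for the difference, 13% were called higher and 10.6% lower. They were *HMOX1* (0.99), *GCLM* (0.95), *AKR1B10* (1.18), *ABCC2* (0.99), *TXN* (2.67), *SLC7A11* (2.26), *TXNRD1* (0.92), *BLVRB* (-0.58), *FTH1* (0.91), *FTL* (0.25), *OSGIN1* (-1.93) and *TRIM16* (-0.86), the last 4 named after their values were seen. *FTH1* and *FTL* encode the ferritin chains. Among the 12, the most one-sided neighbourhoods in sgBACH1 were those of *FTL*, *OSGIN1* and *TXNRD1*. Of 100 tested neighbours each, 38 rose and 1 fell around *FTL*, 5 rose and 46 fell around *OSGIN1*, and 2 rose and 35 fell around *TXNRD1*. The part of these neighbourhoods in the differences was not tested. Of the 12 *AKR1B10* lost its call without siCont replicate 3 (adjusted p = 0.184) and without any 1 of 9 other libraries, and with limma-voom (0.0613). Without some single libraries *FTL* and *TRIM16* lost theirs (adjusted p up to 0.112 and 0.118), as they did with no filter (0.122 and 0.0778) and, for *FTL*, with upper quartile scaling (0.0718).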

How the results depend on the processing

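The calls of *BACH1* in both experiments and of *NFE2L1*, *NFE2L2*, *NFE2L3* and *MAFF* in sgBACH1 held under every alternative run. With single libraries left out the siRNA experiment gave 2002 to 5121 called genes, the highest without siCont replicate 2 and 2002, 2078 and 2096 without siBACH1 replicate 1, 2 and 3, against 3481 with all. The guide RNA experiment gave 2500 to 3586 (3407 with all) and the difference 2960 to 3990 (3687 with all). Upper quartile scaling called 1820 genes higher and 1757 lower in siBACH1, against 1586 and 1895.

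The numbers of replicates gave little sign of pairing. Same-numbered libraries deviated together with a correlation of 0.0582, 0.0403 and 0.0161 in the siRNA experiment and -0.00876, 0.0392 and 0.0484 in the other. Libraries with different numbers gave -0.0493 to 0.0139 in the siRNA experiment and -0.0605 to 0.0205 in the other. The same-numbered values were mostly higher, but all were small. With the replicate block edgeR called 3196, 3530 and 3513 genes, and no call of the 9 factors changed. Beside the block values given with their genes, it ended the calls of the differences of *DDI2* (0.06), *ATF3* (0.0634), *AKR1B10* (0.0512), *FTL* (0.0587) and *TRIM16* (0.0547), and *AMER1* (0.0319) and *FOSL1* (0.0465) passed in siBACH1 and *SMARCA4* (0.049) in the difference (adjusted p).

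Direction turned with single libraries left out, ranges given per gene: in siBACH1 *NFE2L1* (-0.25 to 0.12), *NFE2L2* (-0.23 to 0.095), *PGAM5* (-0.042 without siCont replicate 2, up to 0.27), *OGT* (-0.027 to 0.14), *MAFA* (-1.28 to 0.42, and 0.062 without siBACH1 replicate 1) and *ATF3* (-0.88 to 0.26), in sgBACH1 *FBXO22* (-0.14 to 0.024), and in the difference *MAFK* (-0.23 to 0.043, with 0.034 without sgBACH1 replicate 3), *FOSL1* (-0.56, adjusted p = 0.038, to 0.31, with -0.025 without siBACH1 replicate 3 and -0.11 without sgCont replicate 2) and *EP300* (-0.067 to 0.10, with -0.062 without siCont replicate 2 and -0.016 without sgBACH1 replicate 3). The difference of *FOSL1* was also -0.14 with limma-voom and -0.084 with the replicate block, against 0.043. None of these passed with all libraries, and the cause was not tested.

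With the longest transcript as length, *BACH1* per *NFE2L2* was 0.647 in siCont, 0.0789 in siBACH1, 1.13 in sgCont and 0.589 in sgBACH1, since the annotated lengths differ. Counts limit *BACH2* and the large MAF genes. For 2 settings of named genes DESeq2 gave no adjusted p.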

Other observations

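Among AP-1 factors, which bind the core TGAGTCA that CNC dimers also recognise, *FOS* and *JUNB* fell in siBACH1 and rose in sgBACH1. Of 10 tested in siBACH1, 1 rose and 3 fell (median log2 -0.69), where 10.9% of all genes rose and 13% fell, and of 9 tested in sgBACH1, 3 rose and 2 fell (median 0.13), where 11.3% and 12.3% did. *FOS* fell from 70.6 ± 4.02 to 20.7 ± 2.23 CPM in siBACH1 (SD, n = 3; log2 -1.77 ± 0.11 SE, edgeR adjusted p = 8.38e-06) and rose from 18.3 ± 3.02 to 30.7 ± 5.78 CPM in sgBACH1 (log2 0.74 ± 0.17 SE, edgeR adjusted p = 0.00185). *JUNB* fell by 0.86 in siBACH1 and rose by 0.45 in sgBACH1, and *FOSL2* rose by 0.95 and fell by 0.42. *FOSL1*, a member known from aggressive carcinoma cells, fell by 0.88 ± 0.13 in sgBACH1 (SE, edgeR adjusted p = 1.2e-05) and stood at -0.93 in siBACH1 without passing (adjusted p = 0.0744), a value that was -0.33 without siCont replicate 2 (adjusted p = 0.0211). *FOSB* fell by 1.43 in siBACH1 and *ATF3* rose by 1.69 in sgBACH1, both from low levels and both losing their calls without some single libraries (adjusted p up to 0.135 and 0.196) and with limma-voom (0.0685 and 0.0609). *FOSB* stood at -0.73 without siCont replicate 2, and *ATF3* also lost its call with no filter (0.0763) and with the replicate block (0.0722). Of the AP-1 genes that fell in siBACH1, *FOS* and *FOSB* carry one of the 3′ UTR sequences described above and *JUNB* carries neither. The part of these sequences was not tested.

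Of 5 genes for proteins that bind NRF2 or act on chromatin with it, 3 passed in siBACH1, all upwards (median log2 0.35), where 10.9% of all genes rose, and 1 rose and 1 fell in sgBACH1 (median 0.21), where 11.3% rose and 12.3% fell. *RXRA*, a nuclear receptor known to bind and restrain NRF2, rose in both, by 0.48 ± 0.09 in siBACH1 and 0.89 ± 0.10 in sgBACH1 (SE, edgeR adjusted p = 0.00477 and 1.84e-07). Of the 100 tested genes around it on chromosome 9, 12 rose and 5 fell in siBACH1, and 22 rose and 5 fell in sgBACH1. The remodeller gene *CHD6* rose by 0.59 in siBACH1 but not without siBACH1 replicate 1 (adjusted p = 0.0526) or 2 (0.0511). *CREBBP*, the acetyltransferase CBP, rose by 0.35 in siBACH1 (edgeR adjusted p = 0.0152), but not without siCont replicate 1 (0.0603) or siBACH1 replicate 1, 2 or 3 (0.0536, 0.0854 and 0.0611). In sgBACH1 it fell by 0.59, where 55 of the 100 tested genes around it on chromosome 16 also fell and 2 rose. *EP300*, the acetyltransferase p300, stood at 0.18 ± 0.10 in siBACH1 and 0.21 ± 0.09 in sgBACH1, and the remodeller gene *SMARCA4* at 0.25 ± 0.08 and -0.12 ± 0.10 (log2, SE). Neither passed in siBACH1 (edgeR adjusted p = 0.224 and 0.0559) unless siCont replicate 2 was left out (0.00441 and 0.0029) or, for *SMARCA4*, upper quartile scaling was used (0.0332), and neither passed in sgBACH1 (0.129 and 0.4).

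Scaled over all 12 libraries, the control groups sgCont and siCont stood at different mean levels for several of the factors. *NFE2L3* stood at 24.7 ± 0.511 CPM in sgCont and 5.17 ± 0.642 in siCont, *MAFF* at 34.9 ± 3.85 and 19.7 ± 6.96, and *NFE2L2* at 123.9 ± 6.47 and 173.3 ± 41.4 (SD, n = 3). For *NFE2L3* and *MAFF* the sgCont libraries were higher than all libraries of the other 3 groups, and for *NFE2L2* they were lower than all of them. These levels were not tested across the experiments.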
